A study of Mus musculus with 10 samples.

Results

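The Serpina3 antichymotrypsin genes are a tandem family of serine protease inhibitors on mouse chromosome 12. The 6 members described here, Serpina3c, Serpina3f, Serpina3g, Serpina3k, Serpina3m and Serpina3n, were found by symbol among 14 annotated Serpina3 genes of the cluster, in a table of 55401 genes. These 6 genes were chosen on their values in the same comparison of genotypes that is given below, so their differences between genotypes are descriptions and carry no test. Liver RNA came from 10 female fetuses at E18.5 (late gestation) on a C57BL/6J background. In 5 of them (Mir483Pat-KO), the microRNA gene Mir483 was deleted from the copy inherited from the father, and the other 5 were WT littermates with no engineered allele. The deletion was made by Cre in JM8.F6 embryonic stem cells, which come from C57BL/6N, and more than 1 clone was used to make chimeras. Which clone or clones the fetuses descended from is not given, and the deletion is present in every cell rather than in the liver alone.

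A serpin is a suicide inhibitor. Its reactive centre loop is offered as bait, the target protease cuts it, and the loop then springs into the body of the serpin and traps the protease. Humans have a single antichymotrypsin gene, SERPINA3, whereas in rodents the gene has multiplied and the copies differ most in the loop, which sets the protease they inhibit. Hepatocytes secrete several of these proteins into plasma, and SERPINA3 is a classic acute-phase gene that responds to IL-6 through STAT3. In mice, Serpina3n inhibits granzyme B and neutrophil proteases, Serpina3k, also called kallikrein-binding protein, inhibits tissue kallikrein, Serpina3g, also called Spi2A, inhibits cysteine cathepsins inside cells and is induced by interferon and NF-κB, and Serpina3c, Serpina3f and Serpina3m are less well described.

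The loop is shown first because it is where the 3 abundant members, and Serpina3c, part from each other. The stretches below are the 22 codons (66 bases) that begin at the glycine, threonine and glutamate codons of the loop's hinge, read 5′ to 3′ on the coding strand from the GENCODE transcripts (GRCm38). All lie in coding exons, and capitals mark the bases that differ from Serpina3n.
Serpina3n (chr12:104413448-104413513, plus strand): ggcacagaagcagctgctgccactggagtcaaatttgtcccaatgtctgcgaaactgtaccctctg
Serpina3k (chr12:104345269-104345334, plus strand): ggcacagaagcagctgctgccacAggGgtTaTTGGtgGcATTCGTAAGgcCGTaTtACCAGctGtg
Serpina3m (chr12:104393769-104393834, plus strand): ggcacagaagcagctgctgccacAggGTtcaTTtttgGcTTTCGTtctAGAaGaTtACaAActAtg
Serpina3c (chr12:104147322-104147387, minus strand): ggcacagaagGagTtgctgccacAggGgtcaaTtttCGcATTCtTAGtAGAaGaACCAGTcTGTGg

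The hinge end was nearly the same in all 4 genes and the bait end was not. Serpina3k differed from Serpina3n at 3 of the first 30 bases and at 24 of the last 36, Serpina3m at 3 and 19, and Serpina3c at 4 and 24. Over the whole coding sequence, Serpina3k and Serpina3m were the closest pair among the abundant members, with 91.8% of aligned bases identical, against 82.6% for Serpina3k and Serpina3n and 85.2% for Serpina3m and Serpina3n. Within the 66 printed bases, compared position by position without gaps, the identity of the same 3 pairs was 75.8%, 59.1% and 66.7%. The hinge was not found in the annotated coding sequences of Serpina3f and Serpina3g.

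Such likeness bears on the counts, because read pairs from a stretch that 2 genes hold in common cannot be placed by sequence. Reads were 50 bases long, so every 50-base word (50-mer) of each gene's transcripts was looked up in the annotated transcripts of all genes. Serpina3m held the largest share of such words among the members, 19.1%, and 16.0% of its words were in Serpina3k. Serpina3k shared 14.0% of its words, 12.8% with Serpina3m. The shares were 15.5% for Serpina3g, 10.6% for Serpina3f, 6.90% for Serpina3n and 4.25% for Serpina3c, and every partner was another Serpina3 gene. The words of Serpina3k and Serpina3n had no partner in each other. Serpina3k and 1 annotated Serpina3m transcript also begin with the same first exon, 60 bases at chr12:104338486-104338545 on the plus strand, which is 2.92% of the exonic bases of Serpina3k and 3.49% of those of Serpina3m. No other exon of a Serpina3 gene overlapped another gene on either strand. The paper states that the aligner STAR gave the counts per gene. How read pairs that map to several genes or fall in a shared exon were treated is not given in the sources used here. Levels of Serpina3k and Serpina3m are therefore uncertain by what they share.

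**Figure D1:**
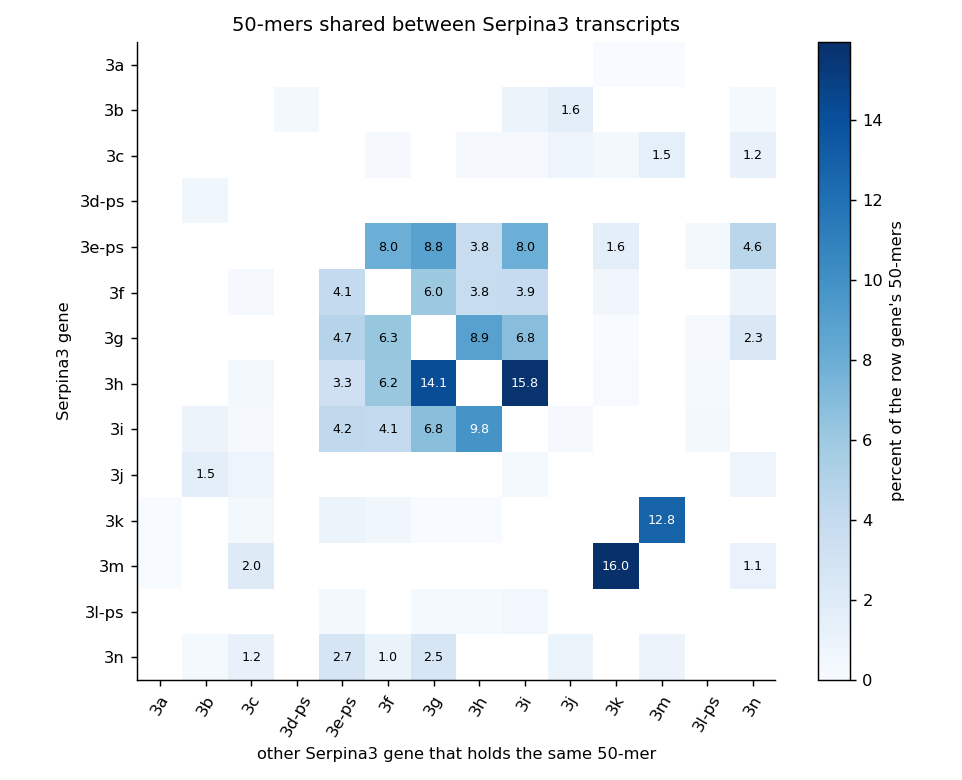
Percent of each Serpina3 gene's 50-mers (rows) that also occur in the transcripts of another Serpina3 gene (columns, names without the leading Serpina), with cells of at least 1% printed and blank cells at 0. Serpina3k and Serpina3m pair with each other at 12.8% and 16.0%, and Serpina3g shares 6.29% with Serpina3f and 2.33% with Serpina3n.

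Serpina3k, Serpina3n and Serpina3m made up nearly all of the family's RNA in fetal liver. Levels are given as CPM, the count of a gene relative to the TMM-scaled size of its library, and between genes as CPM per kb of annotated exon. In WT livers the mean was 124.8 ± 43.8 CPM per kb for Serpina3k, 103.1 ± 17.4 for Serpina3n and 30.5 ± 6.08 for Serpina3m (SD, n = 5), followed by 0.843 ± 0.303 for Serpina3g, 0.774 ± 0.117 for Serpina3f and 0.0426 ± 0.0480 for Serpina3c. On that scale Serpina3k ranked 240 of 14089 genes tested with a length, Serpina3n 284, Serpina3m 1108, Serpina3g 11897 and Serpina3f 12076. The order of Serpina3k and Serpina3n lay within their spread in WT livers, where Serpina3k was the higher of the pair in 3 of 5, and so did the order of Serpina3g and Serpina3f. In Mir483Pat-KO livers Serpina3k was above Serpina3n in 1 of 5 (38.6 ± 30.2 against 73.9 ± 11.2 CPM per kb). Serpina3n was above Serpina3m in all 10 livers.

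**Figure D2:**
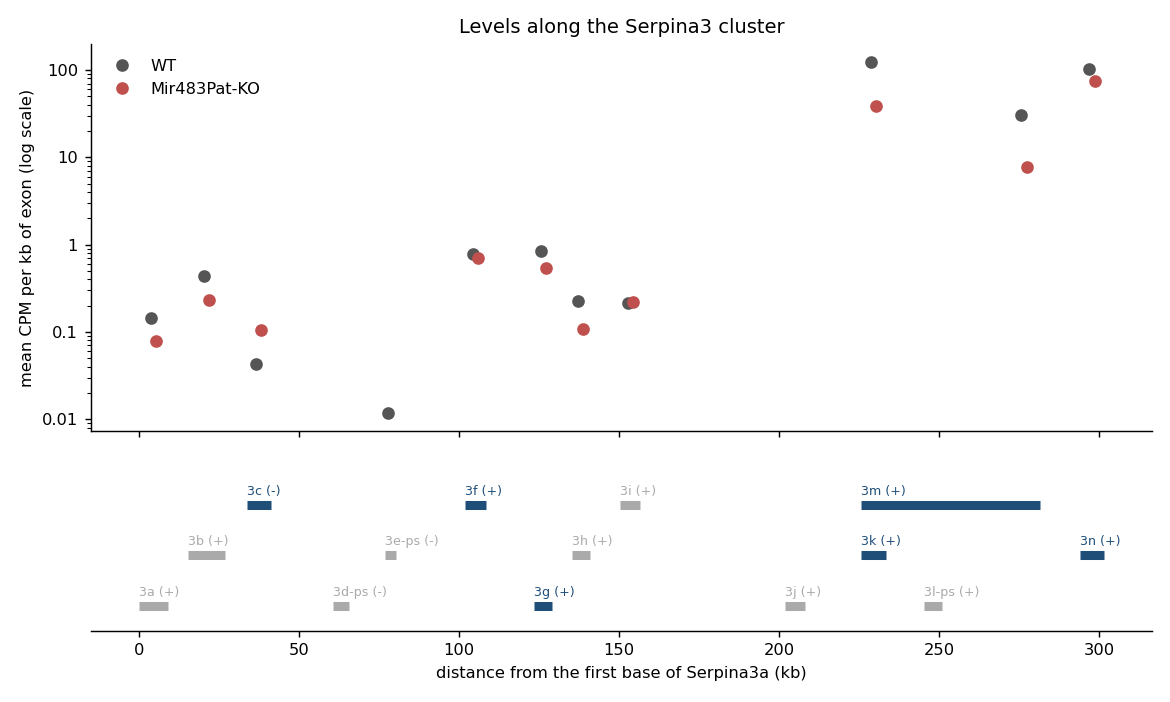
Top, mean CPM per kb of exon (log scale, n = 5 per group) of each annotated Serpina3 gene with at least 1 count in a group, with WT and Mir483Pat-KO dots set side by side. Bottom, the genes at their distance from the start of Serpina3a in kb, with members in blue and strands in brackets. The 3 genes above 1 CPM per kb, Serpina3k, Serpina3m and Serpina3n, stand at one end of the cluster.

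The abundant trio lies at one end of the cluster, Serpina3k at chr12:104338486-104346144, Serpina3m at chr12:104338486-104394257 and Serpina3n at chr12:104406729-104414329, all on the plus strand. Serpina3f (chr12:104214544-104221129) and Serpina3g (chr12:104236245-104241939) lie upstream on the same strand, and Serpina3c (chr12:104146382-104153870) on the minus strand. The 8 annotated Serpina3 genes that are not members were scarce. Serpina3b had 4 to 21 counts per library, Serpina3i 2 to 9, Serpina3h 1 to 8 and Serpina3a 0 to 8. Serpina3e-ps had 1 count in all libraries together, and Serpina3j, Serpina3d-ps and Serpina3l-ps had none, which allows up to 3 counts each by counting error alone. None of these 8 genes passed the low-count filter, so none was tested. Of the 6 members, 5 passed it and Serpina3c did not.

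Before the genotypes are compared, some facts of the libraries need stating. Total counts ranged from 10831350 to 14765880. Mir483 had 10 to 22 counts in the WT livers and 0 in all 5 Mir483Pat-KO livers. The identification numbers in the labels fall into a lower and an upper range, the lower with 4 WT and 2 Mir483Pat-KO livers and the upper with 1 and 3, and what the ranges stand for is not stated. Each library came from a separate fetus. The 6 hepatocyte markers summed to between 206656 and 232481 CPM in WT and between 185714 and 212956 in Mir483Pat-KO livers, with 1 of 6 (Apoa1) passing the test, lower. Those of erythroid cells, which fill the fetal liver, summed to 13492 to 17508 and 15939 to 23399 CPM. Of the other lists, 1 of 6 macrophage markers (Clec4f) passed, lower, 1 of 6 B-lymphoid markers (Rag1) passed, higher, and no marker was at 0 in all libraries. Over all genes tested, 2.76% passed lower and 2.43% higher. By edgeR 0 of 8 neutrophil, 5 endothelial and 5 mesenchymal markers and of the 1 tested T and NK cell marker of 5 passed, with 1, 1, 2 and 0 of them at an unadjusted p under 0.05, and DESeq2 and limma-voom also gave 0. Fewer hepatocytes and less RNA per hepatocyte cannot be told apart in such bulk RNA, and the part of these markers in the results below was not tested.

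Serpina3m had the largest decrease of the 5 members tested. Its levels in WT replicates 1 to 5 were 66.9, 37.9, 55.1, 49.4 and 53.1 CPM, and in Mir483Pat-KO replicates 1 to 5 they were 25.8, 8.09, 15.0, 7.85 and 10.4 CPM. The groups did not overlap, and the highest Mir483Pat-KO liver, replicate 1, was still below the lowest WT liver, replicate 2. The mean was 52.5 ± 10.5 CPM in WT and 13.4 ± 7.51 in Mir483Pat-KO livers (SD, n = 5), and the fitted log2 fold change was −1.96 ± 0.25 (SE), or 3.89-fold lower.

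Serpina3k, the kallikrein-binding protein, was lower in most but not all Mir483Pat-KO livers. WT replicates 1 to 5 had 216.3, 119.2, 345.0, 310.5 and 293.0 CPM, and Mir483Pat-KO replicates 1 to 5 had 187.1, 57.9, 75.4, 40.9 and 36.0 CPM. The groups overlapped through 1 liver, since Mir483Pat-KO replicate 1 exceeded WT replicate 2, while the other 4 Mir483Pat-KO livers were below every WT liver. Means were 256.8 ± 90.2 and 79.5 ± 62.2 CPM, and the log2 fold change was −1.69 ± 0.37, or 3.23-fold lower. Without Mir483Pat-KO replicate 1, which stands apart, the Mir483Pat-KO mean was 52.5 ± 17.9 CPM (n = 4) and the log2 fold change −2.30 ± 0.27, or 4.92-fold lower.

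Serpina3n, the granzyme B inhibitor, had a smaller and more even difference. Its levels were 271.4, 192.3, 184.2, 193.0 and 223.2 CPM in WT replicates 1 to 5 and 165.0, 133.4, 176.9, 122.9 and 163.9 CPM in Mir483Pat-KO replicates 1 to 5. The groups did not overlap, by the narrow margin between Mir483Pat-KO replicate 3 and WT replicate 3. Means were 212.8 ± 36.0 and 152.4 ± 23.1 CPM, and the log2 fold change was −0.48 ± 0.12, or 1.40-fold lower.

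**Figure D3:**
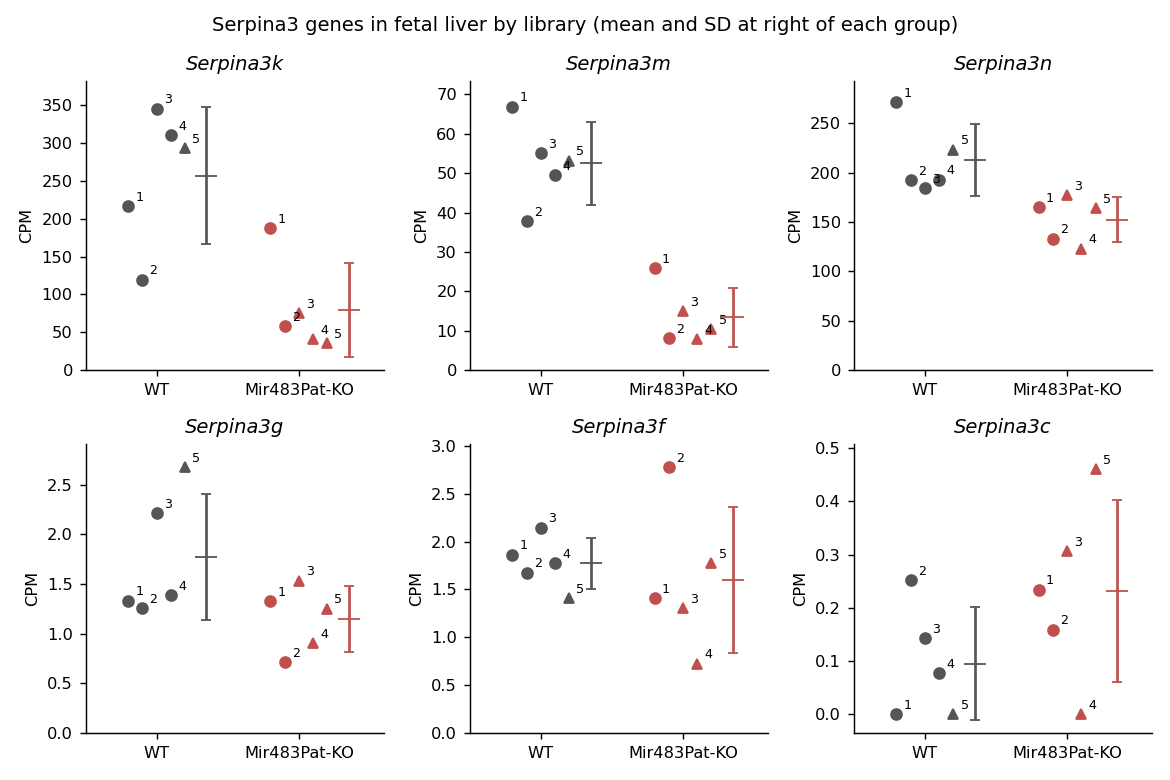
CPM of the 6 members in each of 5 WT (grey) and 5 Mir483Pat-KO (red) livers, numbered by replicate, with circles for the lower and triangles for the upper range of identification numbers and the mean ± SD at the right of each group. Serpina3m and Serpina3n do not overlap between groups, Serpina3k overlaps through Mir483Pat-KO replicate 1 at 187.1 CPM, and the scarce members overlap.

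The scarce members rested on few counts. Serpina3g, the interferon-inducible intracellular serpin, had 15, 15, 31, 18 and 38 counts in WT replicates 1 to 5 and 17, 9, 20, 10 and 19 in Mir483Pat-KO replicates 1 to 5. Its groups overlapped, with WT replicates 3 and 5 above the rest, and the log2 fold change was −0.63 ± 0.29, from means of 1.77 ± 0.638 and 1.15 ± 0.331 CPM. Serpina3f had 21, 20, 30, 23 and 20 counts in WT and 18, 35, 17, 8 and 27 in Mir483Pat-KO replicates 1 to 5. Mir483Pat-KO replicates held both its highest and its lowest level, and the log2 fold change of −0.14 ± 0.28 became 0.07 ± 0.28 with the identification number range as a covariate. Serpina3c had 0, 3, 2, 1 and 0 counts in WT and 3, 2, 4, 0 and 7 in Mir483Pat-KO livers, 6 and 16 in total, and no direction was detectable at this depth. These counts are small beside those of the paralogs that share sequence with the scarce members, since Serpina3n had at least 1362 counts in every library.

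Against all genes, 2 of the 5 members tested (Serpina3k and Serpina3m) were called lower, which required a fold change over 1.5 besides an adjusted p under 0.05 and was so for 0.872% of 14098 genes. With the adjusted p alone, 3 of 5 passed lower (Serpina3n being the third), beside 2.76% of all genes, and 2 of 5 had all Mir483Pat-KO livers below all WT livers, beside 3.26%. Because the members were chosen for this contrast, nothing is read from these shares. The median log2 fold change was −0.63 over the 5 members and 0.0042 over all genes. Serpina3k lost its call without Mir483Pat-KO replicate 4, and no longer passed there, and Serpina3n no longer passed without WT replicate 5, Mir483Pat-KO replicate 2 or Mir483Pat-KO replicate 4.

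The decrease was also read within the identification number ranges. Within the lower range, 4 WT livers had 119.2 to 345.0 CPM of Serpina3k and the 2 Mir483Pat-KO livers had 57.9 and 187.1 CPM, a log2 fold change of −1.02 ± 0.43, or 2.03-fold lower. In the same livers Serpina3m had 37.9 to 66.9 and 8.09 to 25.8 CPM (log2 fold change −1.62 ± 0.34), and Serpina3n 184.2 to 271.4 and 133.4 to 165.0 CPM (−0.50 ± 0.15). In this smaller fit by edgeR 0 of the 3 genes passed, beside 23 of 14494 genes. These livers are among those on which the members were chosen, so no p is read for the members. In the upper range, which holds 1 WT liver and so gives no fit of its own, Serpina3k was at 293.0 CPM in that liver and at 36.0 to 75.4 CPM in the 3 Mir483Pat-KO livers. The values there were 53.1 and 7.85 to 15.0 CPM for Serpina3m, and 223.2 and 122.9 to 176.9 CPM for Serpina3n. With the range as a covariate, the log2 fold changes were −1.59 ± 0.35 for Serpina3k, −1.86 ± 0.25 for Serpina3m and −0.51 ± 0.13 for Serpina3n.

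**Figure D4:**
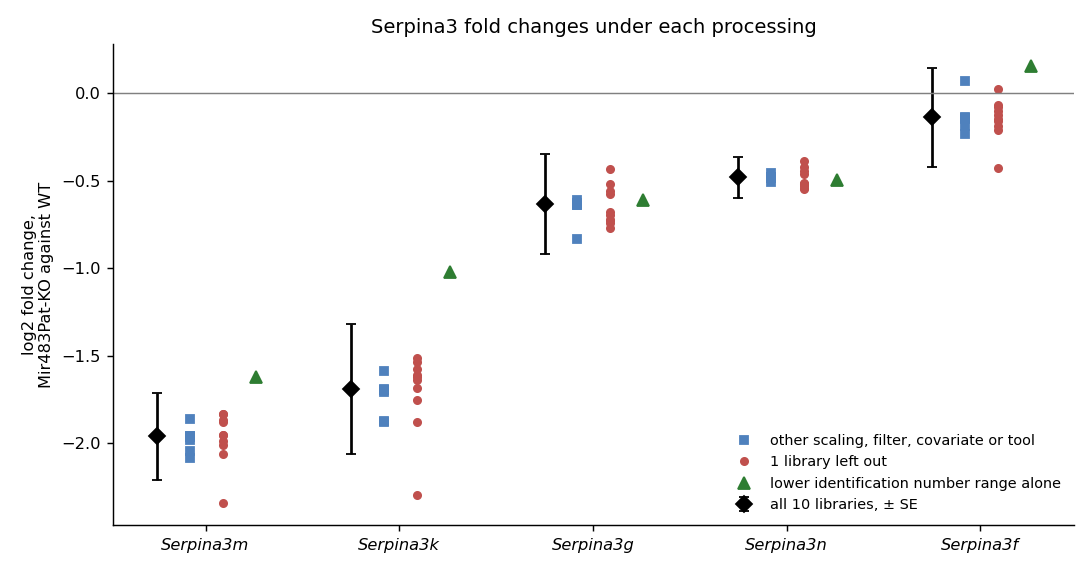
Log2 fold change (Mir483Pat-KO against WT) of the 5 members tested, with all 10 libraries (black, ± SE), under other scalings, filters, covariates or tools (blue), with 1 library left out (red) and in the lower range of identification numbers alone (green). Serpina3m, Serpina3k, Serpina3g and Serpina3n stay below 0 throughout, Serpina3k lies between −2.30 and −1.02, and Serpina3f crosses 0.

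The makeup of the family's RNA differed with the decrease. The 6 members summed to 525.8 ± 97.7 CPM in the WT livers and to 248.3 ± 82.1 in the Mir483Pat-KO livers (SD, n = 5), a log2 ratio of −1.08 that fell in size to −0.67 when Serpina3k was left out of the sum. The summed groups overlapped, since WT replicate 2 (352.6 CPM) was below Mir483Pat-KO replicate 1 (381.0 CPM). Serpina3n was 31.3% to 54.5% of the sum in WT and 43.3% to 76.7% in Mir483Pat-KO livers, and Serpina3k 33.8% to 58.6% and 16.8% to 49.1%. The share of Serpina3m did not overlap, at 8.89% to 11.99% in WT and 3.99% to 6.78% in Mir483Pat-KO livers.

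Ratios between members of 1 library do not depend on its scaling. Serpina3n was 3.34 to 5.08 times Serpina3m in WT livers and 6.39 to 16.5 times in Mir483Pat-KO livers, with no overlap. The ratio of Serpina3k to Serpina3m was 3.15 to 6.28 in WT and 3.46 to 7.24 in Mir483Pat-KO livers, which overlapped widely. Summing the counts of Serpina3k and Serpina3m, so that reads placed in either gene count once, gave 309.3 ± 94.9 CPM in WT and 92.9 ± 69.4 in Mir483Pat-KO livers and a log2 ratio of −1.74. These groups also overlapped through WT replicate 2 (157.1 CPM) and Mir483Pat-KO replicate 1 (213.0 CPM). Any read pairs that were counted for neither gene are missing from this sum.

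**Figure D5:**
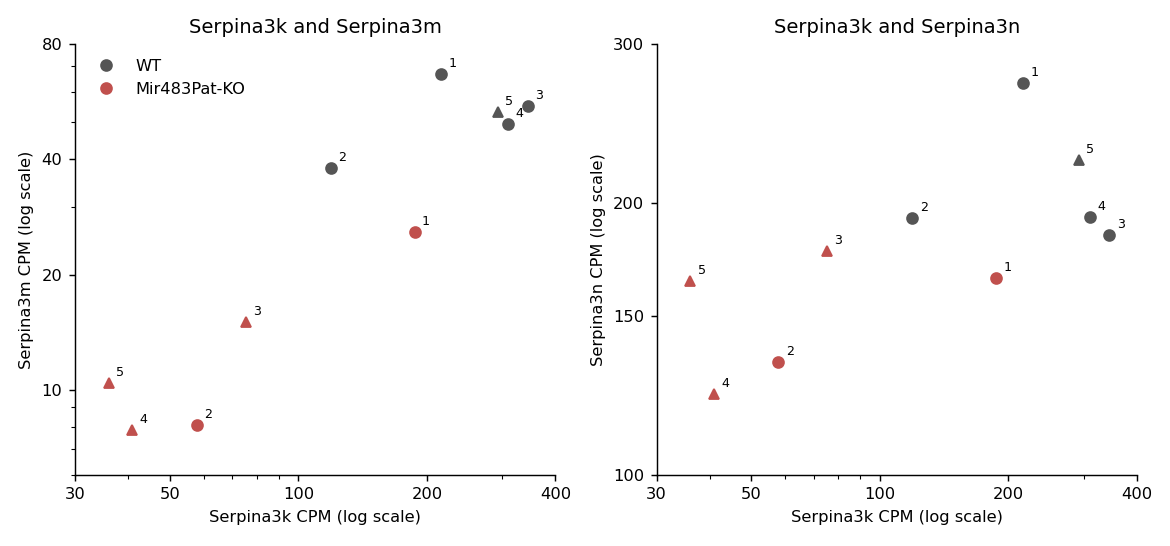
Serpina3m (left) and Serpina3n (right) against Serpina3k in CPM, both axes on a log scale, 1 point per liver numbered by replicate, WT in grey and Mir483Pat-KO in red, with circles for the lower and triangles for the upper identification number range. Serpina3k and Serpina3m are both low in 4 of the 5 Mir483Pat-KO livers, while Serpina3n spans 122.9 to 271.4 CPM against 36.0 to 345.0 CPM for Serpina3k.

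The members also varied from liver to liver within a genotype. In WT livers the coefficient of variation was 35.1% for Serpina3k, 19.9% for Serpina3m and 16.9% for Serpina3n, against medians of 7.94%, 9.03% and 7.97% over the 668, 2705 and 607 genes within 0.5 log2 CPM of each. In Mir483Pat-KO livers it was 78.2%, 55.9% and 15.1%, and without Mir483Pat-KO replicate 1 it was 34.0%, 32.1% and 17.0% (n = 4). Deviations of log2 CPM from the group means correlated at Pearson's r = 0.82 between Serpina3k and Serpina3m over the 10 livers (0.61 without Mir483Pat-KO replicate 1). With the value without that liver again in brackets, r was 0.66 (0.77) between Serpina3m and Serpina3n and 0.51 (0.55) between Serpina3g and Serpina3m. Between Serpina3k and Serpina3n it was 0.22 (0.11). The pairs share libraries, and Serpina3k and Serpina3m share sequence, so these r are descriptions without a test.

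Genes outside the family whose deviations were most like those of a member were taken from the genes with an average log2 CPM of at least 1. For Serpina3k they were C8a (r = 0.95), a complement component made by hepatocytes, Cyp3a41a (0.94), a cytochrome P450, and Ugt1a1 (0.93), the bilirubin-conjugating enzyme. Ugt1a1 had 58.1 ± 15.4 CPM in WT and 19.9 ± 9.35 in Mir483Pat-KO livers, whereas C8a had 118.0 ± 4.72 and 114.3 ± 9.25. For Serpina3m they were Basp1 (0.95), Oas1g (0.94) and Gm21926 (0.91), for Serpina3n Gdap2 (0.97), Elmo1 (0.97) and Lipe (0.93), for Serpina3g Grn (0.94), Rab4a (0.92) and Mov10 (0.92), and for Serpina3f Yap1 (0.99), Srgap1 (0.94) and Tmem181a (0.92). These are the highest values among 12547 candidate genes over 10 livers, and they are descriptions without a test.

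The deleted gene yields 2 mature microRNAs, shown with the seed (bases 2 to 8) in capitals as RefSeq gives them on the minus strand of chromosome 7 (GRCm38). They are printed because a microRNA usually acts on a target through a match to the seed in its 3′ UTR.
mmu-miR-483-3p: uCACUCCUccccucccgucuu
mmu-miR-483-5p: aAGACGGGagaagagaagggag

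The longest annotated 3′ UTR of the members ran from 330 bases (Serpina3m) to 850 bases (Serpina3c), and neither AGGAGTG nor CCCGTCT, the 7 bases complementary to each seed, was found in any of the 6. Levels of the 2 mature microRNAs are not measured by these polyA libraries.

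Serpina3n and Serpina3c face each other as a contrast in level with near-identical sequence upstream. The 250 bases before the RefSeq start of each (GRCm38.p6) aligned over 247 bases with 92.7% identity. Capitals mark bases that differ or have no partner.
Serpina3n (chr12:104406458-104406707, plus strand): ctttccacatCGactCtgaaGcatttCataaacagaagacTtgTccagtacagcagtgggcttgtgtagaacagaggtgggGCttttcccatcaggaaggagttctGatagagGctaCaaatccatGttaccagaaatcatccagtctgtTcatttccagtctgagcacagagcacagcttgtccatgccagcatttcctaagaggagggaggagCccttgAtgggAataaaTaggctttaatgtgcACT
Serpina3c (chr12:104153873-104154122, minus strand): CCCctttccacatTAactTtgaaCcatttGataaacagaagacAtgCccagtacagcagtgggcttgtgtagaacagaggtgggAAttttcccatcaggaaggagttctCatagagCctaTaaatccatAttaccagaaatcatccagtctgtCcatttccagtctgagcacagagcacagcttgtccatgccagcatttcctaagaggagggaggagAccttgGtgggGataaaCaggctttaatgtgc

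With this upstream sequence Serpina3n had 1362 to 3168 counts per library and Serpina3c 0 to 7. Motifs were searched on both strands of the 300-base windows from 250 bases before to 50 after each start. The STAT motif TTCNNNGAA was in the windows of Serpina3f, Serpina3g and Serpina3i and in 8.30% of all 32851 windows, and the C/EBP motif TTNNGCAA was in those of Serpina3b and Serpina3f and in 10.8% of all. Of the other two motifs searched, the interferon-stimulated response element (TTTC and again TTTC, 2 bases apart) was in the window of Serpina3a and in 3.44% of all windows, and the TATA box TATAAA was in the windows of Serpina3a, Serpina3b and Serpina3c, in 1 of 2 windows of Serpina3f and in 13.6% of all. Serpina3n had no match to any of the 4 motifs, and Serpina3c had 1, the TATA box. A match is a run of letters and not a bound site. Windows of Serpina3k and Serpina3m were not used here.

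The family's pathways were read from lists in the same fit, with p-values adjusted over the 14098 genes tested (edgeR's quasi-likelihood test, n = 5 per group). Among 16 regulators of the IL-6, STAT3 and acute-phase response, all tested, 0 passed lower and 1 passed higher, beside 2.76% and 2.43% of all genes. The 1 gene was Socs3, the feedback inhibitor of IL-6 signalling, at 10.7 ± 0.983 CPM in WT and 14.3 ± 1.96 in Mir483Pat-KO livers (log2 fold change 0.42 ± 0.11, adjusted p = 0.0379), higher in 5 of 5 than in every WT liver. By DESeq2 2 of the 16 passed and by limma-voom 1, and 6 were at an unadjusted p under 0.05. Over all 14098 genes, 731 passed by edgeR, 1160 by DESeq2 and 753 by limma-voom. With the identification number range as a covariate 1189 passed, and in the lower range alone 23 of 14494. The share of all genes at an unadjusted p under 0.05 is not given here. Counts at that level, for every list and marker set, therefore have no background and nothing is read from them. Socs3 did not pass with the identification number range as a covariate (0.37 ± 0.12, adjusted p = 0.0677) or in the lower range alone (0.18 ± 0.13, adjusted p = 0.56), where 0 of the 16 passed by edgeR and 3 were at an unadjusted p under 0.05. With the covariate 1 of the 16 passed lower, Cebpd, a C/EBP transcription factor gene named after its values were seen (−0.55 ± 0.16, adjusted p = 0.0481, against −0.36 and adjusted p = 0.239 without it), and 9 were at an unadjusted p under 0.05. The median of the list was −0.13.

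Positive acute-phase proteins, the plasma proteins that rise with SERPINA3 in inflammation, went both ways. Of 25 listed, 21 were tested, 2 passed lower and 2 higher, beside 2.76% and 2.43% of all genes. Haptoglobin (Hp) was lower (−0.47 ± 0.12 on the log2 scale, adjusted p = 0.0377), from 1407 ± 273.2 to 1014 ± 116.8 CPM, and so was complement C3 (−0.29 ± 0.08, adjusted p = 0.0473). Ceruloplasmin (Cp), the copper carrier of plasma, was higher, from 566.3 ± 30.5 to 713.1 ± 43.7 CPM (0.33 ± 0.07, adjusted p = 0.0114), as was Saa4 (0.28 ± 0.07, adjusted p = 0.0416). By DESeq2 7 of the 21 passed, and by limma-voom 5, beside 1160 and 753 of all 14098 genes. With the identification number range as a covariate 3 passed lower (Hp and, named after their values were seen, Lrg1 and Lbp) and 1 higher (Cp), C3 (−0.29) and Saa4 (0.25) not among them, and in the lower range alone 0 passed by edgeR, with 9 at an unadjusted p under 0.05. The log2 fold changes in the lower range were −0.46 for Hp, −0.19 for C3, 0.32 for Cp and 0.25 for Saa4. The median was −0.05.

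Interferon response genes, among which Serpina3g belongs by its induction, were mostly lower. All 24 were tested, 14 passed lower and 0 higher, beside 2.76% and 2.43% of all genes. The median log2 fold change was −0.56, against 0.0042 over all genes. The 4 with the smallest p were Irgm1 (−0.78 ± 0.10, adjusted p = 0.00133), an immunity-related GTPase, Irf7 (−1.05 ± 0.14, adjusted p = 0.00133) and Stat2 (−0.57 ± 0.09, adjusted p = 0.00307), transcription factors of the response, and Nlrc5 (−1.13 ± 0.17, adjusted p = 0.00306), the activator of MHC class I genes. All 5 Mir483Pat-KO livers were below all WT livers for each of these 4 genes. In the lower identification number range alone 5 of the 24 passed lower, of 20 genes that passed lower in all, and 16 were at an unadjusted p under 0.05. The log2 fold changes there were −0.73 for Irgm1, −1.10 for Irf7, −0.43 for Stat2 and −1.23 for Nlrc5.

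Of 12 genes of growth hormone and STAT5 signalling, 11 were tested and 1 passed, Jak2, the receptor's kinase, at 47.9 ± 4.41 and 59.0 ± 2.65 CPM (0.30 ± 0.07, adjusted p = 0.0265). Of all genes, 2.76% passed lower and 2.43% higher. In the lower identification number range alone 0 of 12 tested genes passed by edgeR, with 4 at an unadjusted p under 0.05, and Jak2 was at 0.30 ± 0.09 (adjusted p = 0.207). The proteases that Serpina3 proteins inhibit, or that resemble those they inhibit, gave 0 of 11 tested genes in either direction by edgeR. DESeq2 and limma-voom gave 0 as well, 2 genes were at an unadjusted p under 0.05, and the median was −0.14.

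Genes around the cluster went both ways. Of 70 annotated genes outside the family within 1 Mb of it, 26 were tested. Of these 4 passed lower and 1 higher, beside 2.76% and 2.43% of all genes, and the median log2 fold change was −0.03. Serpina6, which encodes corticosteroid-binding globulin, was higher, from 35.7 ± 8.68 to 89.6 ± 27.2 CPM (1.33 ± 0.20, adjusted p = 0.00306). Serpina11, a serpin gene of the same cluster, was lower by less than Serpina3n (−0.36 ± 0.08, adjusted p = 0.0192). Ddx24, an RNA helicase gene (−0.26 ± 0.06, adjusted p = 0.0272), and Ifi27l2a, an interferon-stimulated gene (−0.86 ± 0.22, adjusted p = 0.0358), were lower as well. In the lower identification number range alone Serpina6 passed higher (1.30 ± 0.21, adjusted p = 0.0436) and 0 neighbours passed lower by edgeR, with 7 of 26 at an unadjusted p under 0.05. The log2 fold changes there were −0.39 for Serpina11, −0.24 for Ddx24 and −1.23 for Ifi27l2a.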

How the data were processed

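Stranded polyA libraries (TruSeq) of 10 fetal livers were sequenced as paired 50-base reads. With STAR 2.5.0a the authors aligned the reads to GRCm38 (Ensembl) and obtained counts per gene. They deposited raw read counts per Ensembl gene, without normalization. The rule for reads that map to several genes and the strand setting are not given in the sources used here. Groups came from the sample labels. Counts were fitted in R 4.3.3 with edgeR 4.0.16, the study's method, on all 14098 genes kept by filterByExpr, with TMM scaling, the quasi-likelihood F-test and no covariate. Benjamini-Hochberg adjustment covered all genes tested. CPM values used the TMM-scaled library sizes, and correlations used log2 CPM with a prior count of 2. Library totals of 10831350 to 14765880 counts set the precision. Floors of 3 counts cover counting error only. P-values measure the spread between fetuses.

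Gene positions, exons and coding sequences came from GENCODE mouse release M21 (GRCm38), of which 55141 of the 55401 genes matched a symbol, and promoter and microRNA sequences from RefSeq (GRCm38.p6). Shared words were exact 50-mers of annotated transcripts. No genome was searched, so partners outside annotated genes were not analysed here. Loops were found in translated coding sequences by the residues of the hinge. The members, the lists and the rule for named genes were chosen with earlier results of these data known. Genes named were all Serpina3 genes, up to 4 members of each list that passed, with the smallest p, and the 3 genes most correlated with each member.

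Alternatives were RLE scaling, DESeq2 1.42.0, limma-voom (limma 3.58.1), fits without the low-count filter or with a minimum of 10 counts per library, a block for the replicate number, a covariate for the range of the identification number (split at 450), the lower range alone, GC content and length offsets, each library left out in turn, and for the sum other sets of genes and scalings. The sum of Serpina3k and Serpina3m was added after the data were seen. Replicate numbers were checked for pairing. Libraries of equal number deviated from their group means with correlations of −0.05 to 0.26 across genes, not all above 0.1, so libraries were treated as unpaired. Replicates of a group differed by at least 4.54 times the counting variance. The procedure was tested on simulated data. Figures were drawn with Python 3.11.15 and matplotlib 3.10.9. The count of erythroid markers that passed is not reported here.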

Additional observations from a re-analysis of the deposited data

Results flagged for a closer look

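Of 18 sets of 5 values checked for a library far from the others of its genotype, 3 held one. Chance marks about 1 in 20 such sets. Serpina3k in Mir483Pat-KO livers was 187.1 CPM in replicate 1 against 36.0 to 75.4 CPM in the other 4. In the same liver the ratio of Serpina3k to Serpina3n was 1.13, against 0.220 to 0.434 in the other 4. The sum of the 6 members in WT livers was 352.6 CPM in replicate 2 against 556.1 to 588.8 CPM in the other 4. Both libraries belong to the lower range of identification numbers.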

How the results depend on the processing

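The log2 fold changes of Serpina3k, Serpina3m, Serpina3n and Serpina3g kept their direction under every alternative run. Each moved by less than 1 SD of log2 CPM between single replicates of a group, which is a wide yardstick. For Serpina3k that SD was 0.80, beside an SE of 0.37 for its log2 fold change, which ranged from −2.30 to −1.02. Serpina3f changed sign, between −0.43 and 0.16, without having been called. Serpina3c was not tested, and Serpina3f and Serpina3g have no value where at least 10 counts were required in every library. Leaving out 1 library gave −2.30 to −1.51 for Serpina3k, −2.34 to −1.83 for Serpina3m, −0.55 to −0.39 for Serpina3n, and −1.29 to −0.98 for the log2 ratio of the summed members. That ratio was −1.08 with all libraries and −0.67 without Serpina3k, the member with the highest mean CPM in WT livers. Serpina3k, Serpina3m and Serpina3n passed in 17, 18 and 15 of 19 alternatives. The alternatives reuse the libraries on which the members were chosen, so these counts are descriptions without a test.

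Over all genes, 123 were called lower and 50 higher. Without the low-count filter 222 and 99 were called, and in the lower identification number range alone 19 and 2. The range as a covariate gave 107 genes called higher, and GC content and length offsets gave 25. Leaving out 1 library gave 80 to 171 called lower and 17 to 66 called higher, the lowest of each without Mir483Pat-KO replicate 4. Those called higher were 24 to 28 without WT replicate 5, Mir483Pat-KO replicate 2 or Mir483Pat-KO replicate 3. With the replicate number as a block 145 and 71 were called, and the log2 fold changes were −1.87 for Serpina3k, −2.05 for Serpina3m, −0.48 for Serpina3n, −0.63 for Serpina3g and −0.19 for Serpina3f. The block ended no call of a member. With 1.77 CPM in WT livers, Serpina3f and Serpina3g are limited by depth. Small list counts depended on single libraries. Leaving out 1 library gave 1 to 4 neighbours lower (1 without WT replicate 5, Mir483Pat-KO replicate 2 or Mir483Pat-KO replicate 5), 0 to 3 acute-phase proteins lower and 1 to 3 higher, 0 to 1 IL-6 regulators lower and 0 to 2 higher, and 0 to 2 growth hormone genes in each direction, whereas 11 to 16 interferon genes passed lower. In these 10 fits Serpina6, Serpina11, Cp and the 4 interferon genes named passed each time, whereas C3 did not pass in 9, Saa4 in 8, Hp and Ifi27l2a in 7, Socs3 in 6, Jak2 in 5 and Ddx24 in 4.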
